A study of Mus musculus with 7 samples.

Results

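The 10 genes described here encode receptors of the Notch pathway (Notch1, Notch2, Notch3 and Notch4), their Jagged ligands (Jag1 and Jag2), the protease Adam10, the inhibitor Numb, the nuclear partner Rbpj and the target Hey1. All probe sets that the array annotation assigns to 1 of these genes were taken, which gave 20 of the 22690 probe sets on the array, and 16 of them were bright enough to be tested. Of these, 14 reached the brightness limit in both groups, while Notch4 by 1449146_at and Jag2 by 1426431_at reached it in exposed embryos only. Whole E10.5 embryos of the FVB strain were measured, each on its own Affymetrix array. The groups were 2 control embryos of an untreated dam, 3 diabetes-exposed embryos without a neural tube defect (NTD) and 2 diabetes-exposed embryos with NTD, and the 5 exposed embryos came from 1 dam made diabetic with streptozotocin, with blood glucose above 250 mg/dl. Since each condition is 1 litter, diabetes and litter cannot be told apart, and every p-value is set against the spread between littermates. In whole embryos, fewer cells of a type and less RNA per cell cannot be told apart either.

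Notch receptors are single-pass membrane proteins that are activated by ligands on a neighbouring cell. Binding of a Delta or Jagged ligand exposes the receptor to ADAM10, which sheds its outer part, after which gamma-secretase releases the intracellular domain. That domain enters the nucleus, joins RBPJ on DNA and turns on genes such as those of the Hes and Hey families. In the mid-gestation embryo the pathway is known for holding neural progenitors undifferentiated, for setting the pace of somite formation and for shaping arteries.

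The clearest difference among the 10 genes was in Adam10, the protease that makes the first activating cut, where 2 of its 3 probe sets had lower signals in all 5 exposed embryos than in both controls. Jag2 was somewhat higher in all exposed embryos by 1 of its 2 probe sets. No member passed the adjusted threshold. Of the 16 tested probe sets 0 were called by limma at a Benjamini-Hochberg adjusted p under 0.05, against 0.172% of all 14554 tested probe sets. At an unadjusted p under 0.05 there were 3, against 16.2% of all tested probe sets. The regularized test after Cyber-T called 2 members, both of Adam10, against 8.96% of all tested probe sets. Of the 3 by limma 1 was higher, against 7.63%, and 2 were lower, against 8.52%. The counts lie near what these shares give for 16 probe sets. The median log2 fold change was 0.07 over the tested members and 0.00 over all tested probe sets, with 9 members above 0 and 7 below. In 2 members all exposed embryos lay above both controls, against 11.4% of all tested probe sets, in 3 they lay below, against 13.4%, and in the other 11 the groups overlapped.

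**Figure D1:**
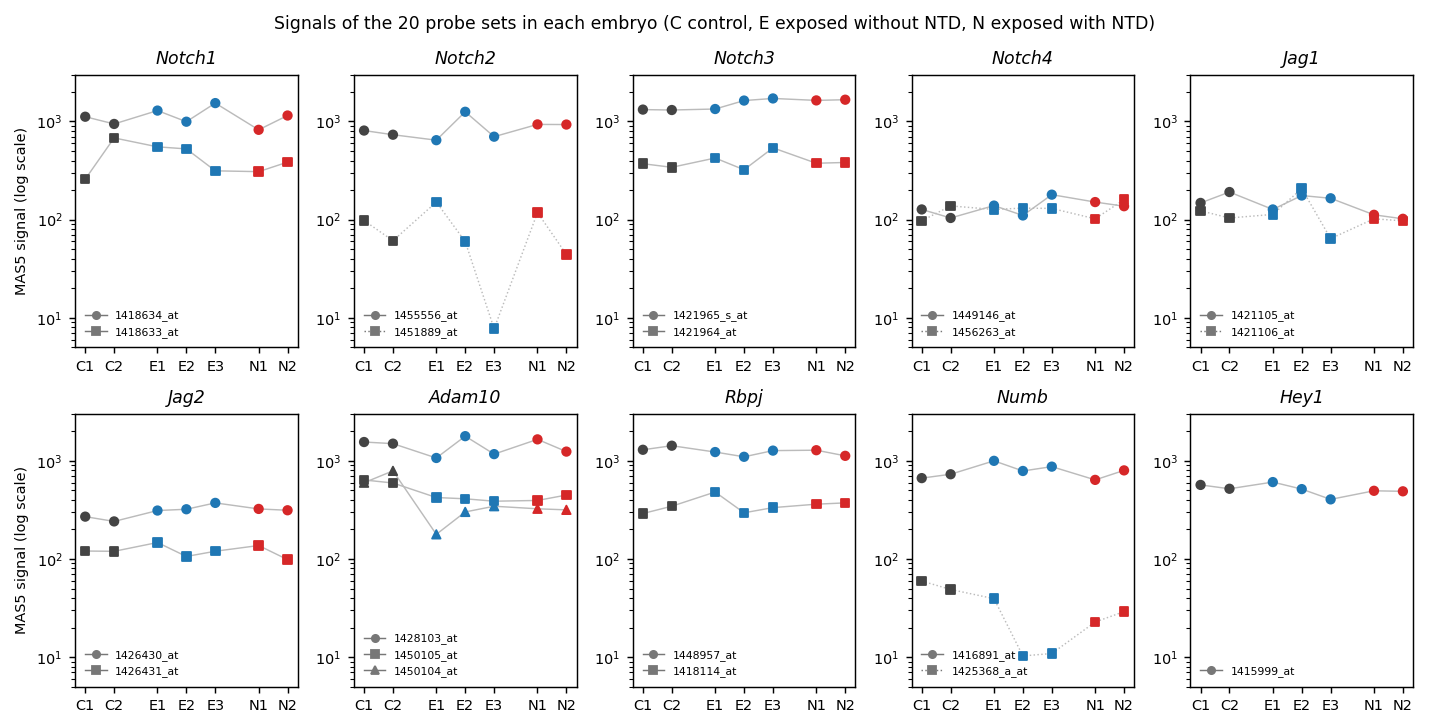
MAS5 signals (log axis) of the 20 probe sets in each of the 7 embryos, 1 panel per gene. Black symbols are controls (C), blue ones exposed embryos without NTD (E) and red ones exposed embryos with NTD (N). Grey lines join the values of 1 probe set and imply no order, and dotted lines are the 4 probe sets that were not tested. Adam10 1450104_at lies between 178 and 344 in exposed embryos and at 597 and 788 in controls.

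Adam10 had signals by probe set 1450104_at of 597 and 788 in controls 1 and 2, of 178, 301 and 344 in embryos 1, 2 and 3 exposed without NTD, and of 324 and 316 in embryos 1 and 2 exposed with NTD. Every exposed embryo lay below both controls, and the lowest was exposed embryo 1 without NTD. Mean signals were 692 ± 136 for the controls (SD, n = 2) and 292 ± 66.0 for the exposed embryos (SD, n = 5). The log2 fold change was -1.27 (standard error, SE, 0.25) with an adjusted p of 0.0619 by limma, so the difference was not called. When exposed embryo 1 without NTD was left out, the log2 fold change was -1.10 and the adjusted p 0.0335, past the threshold. Leaving out each of the other 6 embryos gave adjusted p-values of 0.0617 to 0.395, the highest without a control. This was the only member with a fold of mean signals beyond 1.5 and an unadjusted p under 0.05 in both tests that the study's methods name, which 4.34% of all tested probe sets had. The detection step and the false discovery rate setting of those methods were not applied in this count. Its fold of mean signals was -2.37. The study lists Adam10 among its affected genes on these same embryos, so that its direction here is not independent evidence. By quantitative RT-PCR the study also reports lower Adam10 in exposed embryos. Those embryos were morphologically normal and came from other pregnancies, and the assay read a different region of the transcript from the array probes.

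The second Adam10 probe set, 1450105_at, which was designed on the same source sequence, gave 637 and 593 in the controls, 422, 409.5 and 387 in exposed embryos without NTD, and 394 and 447 in those with NTD. Again no exposed embryo reached the controls, but the difference was smaller, with a log2 fold change of -0.58 (SE 0.13, limma adjusted p = 0.0853). The third, 1428103_at, which was designed on another sequence, gave 1549.5 and 1492 in controls, 1066, 1778 and 1167 in exposed embryos without NTD, and 1649 and 1238 in those with NTD. Here exposed embryo 2 without NTD and exposed embryo 1 with NTD lay above both controls. Its log2 fold change was -0.17, with a 95% interval from -0.60 to 0.26 (limma adjusted p = 0.704). The 3 probe sets thus gave different sizes for the same gene.

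To compare the probe sets within each embryo, a comparison chosen after their values were seen, the log2 ratio of 1450104_at to 1428103_at was taken. It was -1.38 and -0.92 in controls, -2.58, -2.56 and -1.76 in exposed embryos without NTD and -2.35 and -1.97 in those with NTD. All 5 exposed embryos were below both controls, by -1.10 on average. The ratio of 1450105_at to 1428103_at differed by -0.41 and that of 1450104_at to 1450105_at by -0.69. An exact permutation test over the 21 splits of the embryos gave an adjusted p of 0.143 for each of the 3 ratios. As the ratios were formed after the signals had been compared, that test decides nothing and the ratios are descriptions. Such a ratio compares the probe sets and does not show which of them followed the transcript.

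**Figure D2:**
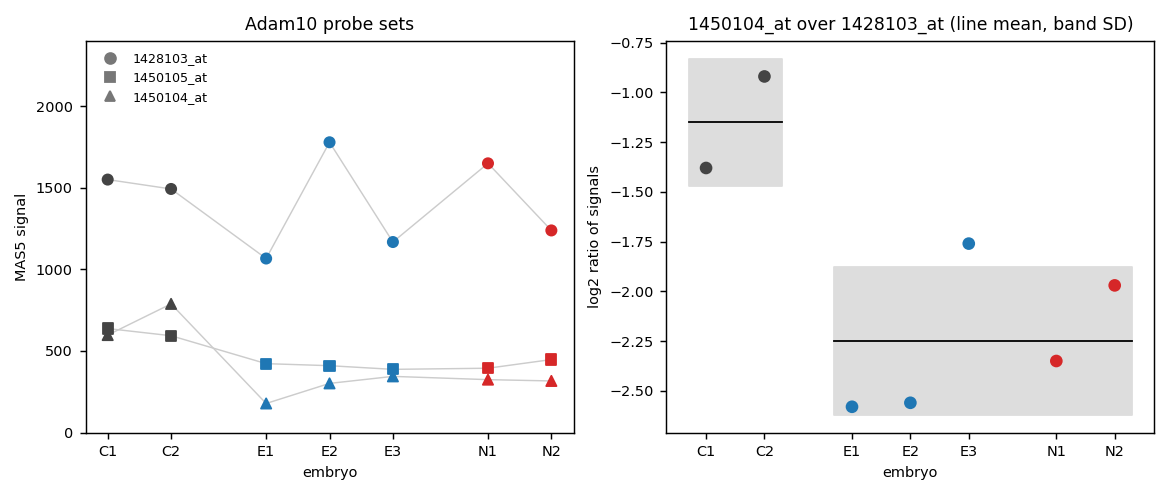
Left, MAS5 signals (linear axis) of the 3 Adam10 probe sets in each embryo; right, the log2 ratio of 1450104_at to 1428103_at, with the mean (line) and 1 SD (band) of the 2 control and the 5 exposed embryos. Symbol colours are black for controls (C), blue for exposed embryos without NTD (E) and red for exposed embryos with NTD (N). The ratios of exposed embryos, -2.58 to -1.76, all lie below the control ratios of -1.38 and -0.92.

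Since Adam10 gave the largest tested difference of the 10 genes, the sequence before its gene start is shown. Given are the first 212 of the 250 bases before the RefSeq transcript start of Adam10 (GRCm38.p6, plus strand, chr9:70678732-70678943), since the annotated gene begins in the last 38, which are left out. The capitals mark CACGTG, a palindromic E-box read the same on both strands. It ends in the letters ACGTG, which are also the core that hypoxia-inducible factors bind. The E-box lies 64 bases before the transcript start and was chosen after the sequence was read.
Adam10: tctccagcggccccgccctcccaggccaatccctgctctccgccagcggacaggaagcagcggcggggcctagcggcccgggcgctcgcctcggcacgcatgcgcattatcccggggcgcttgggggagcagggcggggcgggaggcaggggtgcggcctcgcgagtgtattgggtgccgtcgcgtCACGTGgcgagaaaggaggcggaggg
Of 32851 full promoters of 250 bases, 6.02% held CACGTG. The share that held the shorter ACGTG was not counted, so the 6.02% does not apply to it. A match describes the letters and says nothing of binding.

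The probe sets whose signals followed 1450104_at most closely over the 7 embryos were those of Pxn, Syncrip, Tnks2, Spag5 and Epb41l2. Likeness was the root mean square difference of log2 signals after each probe set was centred on its own mean. It was 0.12 for Pxn, which encodes the focal adhesion protein paxillin, 0.20 for Syncrip, an RNA-binding protein, Tnks2, a tankyrase, and Spag5, a spindle protein, and 0.21 for Epb41l2, a membrane skeleton protein. The median over all tested probe sets was 0.68. Their log2 fold changes were -1.13, -1.09, -1.49, -1.0 and -1.10 in that order, and none was called. By its own criteria the study lists Pxn, Syncrip, Tnks2 and Epb41l2 among its affected genes on these same embryos, as it does Adam10. As likeness was taken over controls and exposed embryos together, fold changes near that of 1450104_at follow from the choice and are no separate result.

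Jag2, a ligand that acts on receptors of neighbouring cells, was the one other member with an unadjusted p under 0.05. Its probe set 1426430_at gave 269.6 and 241 in controls, 311, 320.5 and 372 in exposed embryos without NTD, and 323 and 313 in those with NTD. All 5 exposed embryos were above both controls, the highest being exposed embryo 3 without NTD. The log2 fold change was 0.36 (SE 0.15, limma unadjusted p = 0.0317, adjusted p = 0.263). The dimmer probe set, 1426431_at, had a log2 fold change of 0.00 with a 95% interval from -0.58 to 0.59, and its exposed embryos, at 98.5 to 147, lay on both sides of the controls at 120.4 and 119.6.

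Jag1, the ligand known from Alagille syndrome, had overlapping signals in exposed and control embryos. Probe set 1421105_at gave 148 and 191 in controls, 127, 176 and 165 in exposed embryos without NTD, and 112 and 102 in those with NTD. The embryos with NTD had the lowest signals, and the exposed embryos without NTD lay on both sides of control 1. The log2 fold change of exposed over control embryos was -0.33 (SE 0.28, limma adjusted p = 0.586). Probe set 1421106_at was at or above its array's 40th percentile in 1 embryo only and was not tested; its signals ran from 64.1 to 207, both in exposed embryos.

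Among the receptors, Notch3, which is known for its role in mural cells of arteries, was the nearest to the threshold. Its probe set 1421965_s_at gave 1319 and 1306 in controls, 1337, 1629.9 and 1713 in exposed embryos without NTD, and 1636 and 1663 in those with NTD. All exposed embryos were above both controls, but exposed embryo 1 without NTD only just so. The log2 fold change was 0.28 (SE 0.13, limma unadjusted p = 0.0543, adjusted p = 0.319). Its name ends in _s_at, which marks probes that can match more than 1 transcript, so the signal may not be of Notch3 alone. The second Notch3 probe set, 1421964_at, had a log2 fold change of 0.18 and overlapping groups, with 341 and 371 in controls and 322 to 538 in exposed embryos. In its second experiment, on pools of whole embryos from several dams and another array, the study reports the other direction, a decrease of Notch3.

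Notch1, the receptor most studied in neural progenitors and in somites, showed no difference beyond the spread between embryos. Its brighter probe set, 1418634_at, had 1116 and 942 in controls and 821 to 1536 in exposed embryos, with a log2 fold change of 0.14 and a 95% interval from -0.33 to 0.61. Probe set 1418633_at gave 258 and 679 in the controls and 308 to 551 in exposed embryos, so that the controls enclosed all of them. Its log2 fold change was -0.05 with a 95% interval from -0.82 to 0.72, the widest of the tested receptors. The study reports a decrease of Notch1 in its second experiment on pooled embryos.

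Notch2, a receptor of broad expression in the embryo, had signals by 1455556_at of 807 and 732 in controls and of 644 to 1253 in exposed embryos. The log2 fold change was 0.17 (SE 0.23), and the exposed embryos lay on both sides of the controls. Its other probe set, 1451889_at, was dim, from 7.76 to 151, and not tested. Notch4, a receptor largely confined to endothelium, had signals by 1449146_at of 127 and 104 in controls and of 110.3 to 179.6 in exposed embryos, with a log2 fold change of 0.30 (SE 0.26, limma adjusted p = 0.593). Its other probe set, 1456263_at, lay between 97.3 and 160 in the 7 embryos and was not tested.

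Numb, which targets Notch for endocytosis and so restrains the pathway, gave 665 and 728 in controls, 997, 786 and 870.2 in exposed embryos without NTD, and 638 and 797 in those with NTD by 1416891_at. The 3 exposed embryos without NTD lay above both controls, and those with NTD on either side of them. The log2 fold change was 0.22 (SE 0.17, limma adjusted p = 0.548). The dim probe set 1425368_a_at was below the 40th percentile on all 7 arrays, with 59.6 and 48.9 in controls and 10.3 to 39.4 in exposed embryos, and was not tested.

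Rbpj, the DNA-binding protein through which the Notch intracellular domain acts, had opposite small differences in its 2 probe sets. Probe set 1448957_at gave 1292 and 1421 in controls, 1225, 1096 and 1267 in exposed embryos without NTD, and 1279 and 1121 in those with NTD. All exposed embryos lay below both controls, the nearest by little, and the log2 fold change was -0.18 (SE 0.12, limma adjusted p = 0.492). By 1418114_at the log2 fold change was 0.20 (SE 0.19), with overlapping groups, the highest signal being 480.1 in exposed embryo 1 without NTD. Hey1, a transcriptional repressor that Notch turns on, gave 567 and 518 in controls, 606, 514 and 404 in exposed embryos without NTD, and 494 and 488 in those with NTD. Its groups overlapped, with a log2 fold change of -0.12 and a 95% interval from -0.48 to 0.23.

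For the 13 tested probe sets with an unadjusted p of 0.05 or more, log2 fold changes lay between -0.33 and 0.30. The 95% limits of these differences reached from -0.95 to 0.87. When each gene was counted by its brightest probe set, 1 of the 10 genes, Jag2, had an unadjusted p under 0.05. The number of arrays limits the precision of all these values.

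**Figure D3:**
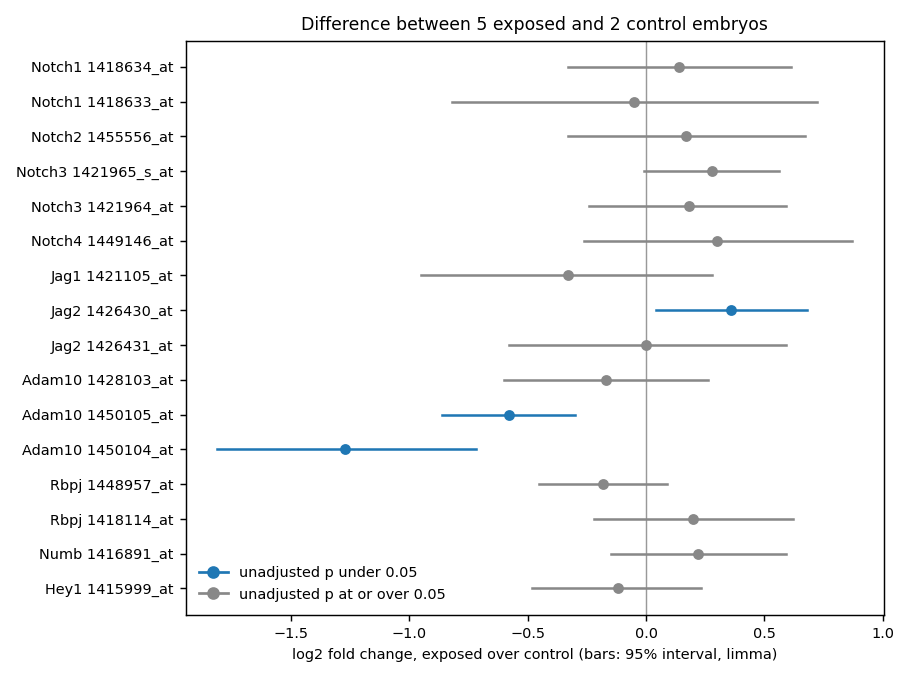
Log2 fold change of exposed over control embryos (points) with its 95% interval from limma (bars) for the 16 tested probe sets. Blue marks the 3 with an unadjusted p under 0.05, of which 2 are of Adam10 (-1.27 and -0.58) and 1 is of Jag2 (0.36); the intervals of the 13 others, in grey, include 0.

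Between exposed embryos with and without NTD no member passed the threshold. The numbers were 0 of 16 called by limma, against 0% of all tested probe sets, and 0 with an unadjusted p under 0.05, against 3.02%. Log2 fold changes of embryos with over those without NTD ran from -0.54 to 0.28, and the smallest unadjusted p was 0.0743 (adjusted p = 0.999). In 1 member, Jag1 by 1421105_at, the embryos with NTD did not overlap those without, against 16.1% of all tested probe sets in either direction. Its mean was 107 ± 7.23 (SD, n = 2) in embryos with NTD and 156 ± 25.5 (SD, n = 3) in those without, a log2 fold change of -0.54 (SE 0.27). Adam10 by 1450104_at had means of 319.8 ± 5.80 (SD, n = 2) and 274 ± 86.3 (SD, n = 3), and both groups lay below the controls.

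The other genes of the pathway, in 7 groups by role, were examined in the same fit. Of 65 genes listed, 57 had a probe set with their symbol in the annotation used here, and 80 probe sets of 54 genes were tested. Of these 1 was called higher and 0 lower, and 11 had an unadjusted p under 0.05 on the higher side and 5 on the lower side, against the 7.63% and 8.52% of all tested probe sets given above. By the brightest probe set 30 genes were above 0 and 24 below, with a median log2 fold change of 0.09.

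The called gene was Hes7, a repressor of the oscillating segmentation clock. It gave 25.2 and 35.2 in controls, 120.1, 201 and 118 in exposed embryos without NTD, and 211 and 211 in those with NTD by 1422950_at. Every exposed embryo lay above both controls. The fitted log2 fold change was 2.48 (SE 0.36, limma adjusted p = 0.0329). Both control signals were far below the 40th percentile of the arrays, 131.5 to 146.4, and were not shown to be above background, so the fitted value is no measured size. The probe set passed the filter only through 3 exposed embryos, the group where it is high, and with no filter the adjusted p was 0.0597 and it was not called. The call was lost when exposed embryo 2 or 3 without NTD, exposed embryo 2 with NTD, control 1 or control 2 was left out, with adjusted p-values of 0.0823, 0.0632, 0.0688, 0.227 and 0.166. Markers of presomitic mesoderm and somites, where Hes7 is known to act, had summed signals of 1977 and 2128 in controls and of 2293 to 2662 in exposed embryos, with 3 genes above 0, 4 below and a median log2 fold change of -0.04. In these sums 1 of 7 tested probe sets was higher at an unadjusted p under 0.05 and 0 were lower, and that one, Meox1 (chosen after its values were seen), made up most of the difference, with 605 in both controls and 913 to 1099.8 in exposed embryos. The part of somite tissue in the Hes7 difference was not tested.

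Among the other targets 2 of 13 tested probe sets were higher at an unadjusted p under 0.05 and 0 were lower. They were of Hes5 and of Myc, a growth regulator, with 345 and 321 in controls and 427 to 576 in exposed embryos, for a log2 difference of 0.58 (SE 0.15, limma adjusted p = 0.111). Hes5, a repressor of neural differentiation, had log2 fold changes of 0.40 and -0.23 by its 2 tested probe sets, and neither was called. Among co-activators 1 of 9 was lower at that level, Snw1 by 1429003_at at -0.59, while its other probe set gave 0.13, and Kat2a, an acetyltransferase, had 0.21 by its brightest one. Among co-repressors 0 of 15 reached it in either direction, the nearest being Tle5 at 0.39 and Hdac1 at -0.19.

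Rbpj recognises the letters TGGGAA, or TTCCCA on the other strand, and they were sought on both strands in the 250 bases before each RefSeq start on GRCm38.p6. They were found in 21.6% of 32851 promoters. Counted by gene, with a match in any of its promoters, they were found in 1 of the 9 member genes with an entry (Rbpj itself, while Hey1 had no entry) and in 15 of 45 genes of the wider pathway. Several of these genes have more than 1 promoter entry, so the counts by gene cannot be set against the share by promoter. Shown are Rbpj and the targets Hes5 and Hes7, since Hes7 was the called gene and Hes5 is a related target; capitals mark the matches, and all 3 lie on the plus strand at chr5:53590096-53590345, chr4:154960673-154960922 and chr11:69120203-69120452.
Rbpj: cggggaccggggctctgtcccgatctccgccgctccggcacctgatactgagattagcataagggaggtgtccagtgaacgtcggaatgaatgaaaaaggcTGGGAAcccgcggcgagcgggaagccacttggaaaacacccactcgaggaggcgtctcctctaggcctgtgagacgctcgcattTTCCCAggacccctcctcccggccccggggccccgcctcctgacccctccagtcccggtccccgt
Hes5: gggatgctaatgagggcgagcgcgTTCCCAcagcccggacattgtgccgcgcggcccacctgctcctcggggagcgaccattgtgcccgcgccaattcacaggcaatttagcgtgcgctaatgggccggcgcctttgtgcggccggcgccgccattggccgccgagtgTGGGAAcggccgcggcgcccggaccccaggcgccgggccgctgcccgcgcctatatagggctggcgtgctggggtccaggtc
Hes7: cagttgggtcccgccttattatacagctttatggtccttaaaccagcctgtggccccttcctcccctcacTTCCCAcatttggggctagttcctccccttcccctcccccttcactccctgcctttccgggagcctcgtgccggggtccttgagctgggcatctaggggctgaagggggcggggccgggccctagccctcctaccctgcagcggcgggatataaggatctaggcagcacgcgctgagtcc
The matches lay 149 and 65 bases before the start shown in Rbpj, 226 and 82 in Hes5 and 180 in Hes7. Such matches are descriptions of sequence, and they were not used in any test.

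Upstream of the nucleus, the proteases and their partners differed in both directions. Adam17, the sheddase related to Adam10, gave 359 and 408 in controls and 212 to 281 in exposed embryos by 1421857_at, for a log2 difference of -0.69 (SE 0.16, limma unadjusted p = 0.00142, adjusted p = 0.0979), while its other probe sets gave -0.30 and -0.14. Aph1a, a subunit of gamma-secretase, gave 277 and 384 in controls and 465 to 909 in exposed embryos by 1424980_s_at, for a log2 difference of 1.01 (SE 0.26, limma adjusted p = 0.117), while its others gave 0.41 and 0.30. As with the _s_at probe set of Notch3, the signal of 1424980_s_at may not be of Aph1a alone. For both genes the probe sets shared 1 direction and differed in size, as for Adam10. In this group 3 of 9 probe sets were higher and 1 was lower at an unadjusted p under 0.05, and none was called.

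Among the genes of endocytosis and ubiquitin transfer 3 of 19 were higher and 3 lower at that level. Dtx3, of the Deltex family of ubiquitin ligases, had 532 and 397 in controls and 731 to 1117 in exposed embryos, with no overlap and a log2 fold change of 1.08 (SE 0.19, limma adjusted p = 0.0597). Nedd4, a ubiquitin ligase, had 4488 and 4055 in controls and 1445 to 2734 in exposed embryos by 1421955_a_at, for a log2 difference of -1.05 (limma adjusted p = 0.0698), but -0.50 and -0.07 by its other tested probe sets. The study lists Nedd4 among its affected genes on these same embryos. The limma test called 0 of the 19.

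Among Delta and other ligands 2 of 6 probe sets were higher and 0 lower at an unadjusted p under 0.05. Dll4, the arterial ligand, had 98.1 and 86.9 in controls and 110.4 to 194 in exposed embryos, for a log2 difference of 0.68 (SE 0.29, limma adjusted p = 0.282). Both controls were below the 40th percentile, so it passed the filter only through exposed embryos. Its other probe set, 1421827_at, was not tested and overlapped, with 53.9 and 146 in controls and 112 to 124 in exposed embryos. Dlk1, a related membrane protein, had 4236 and 4469 in controls and 4695 to 6576 in exposed embryos, for a log2 difference of 0.37 (limma adjusted p = 0.200). Its probe set, 1449939_s_at, may likewise match more than 1 transcript. Among sugar transferases and the convertase Furin, which modify and process the receptors, 0 of 8 reached that level in either direction. Pofut1, which adds fucose, had -1.25 and 0.29 by its 2 tested probe sets, and Furin had -0.24.

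**Figure D4:**
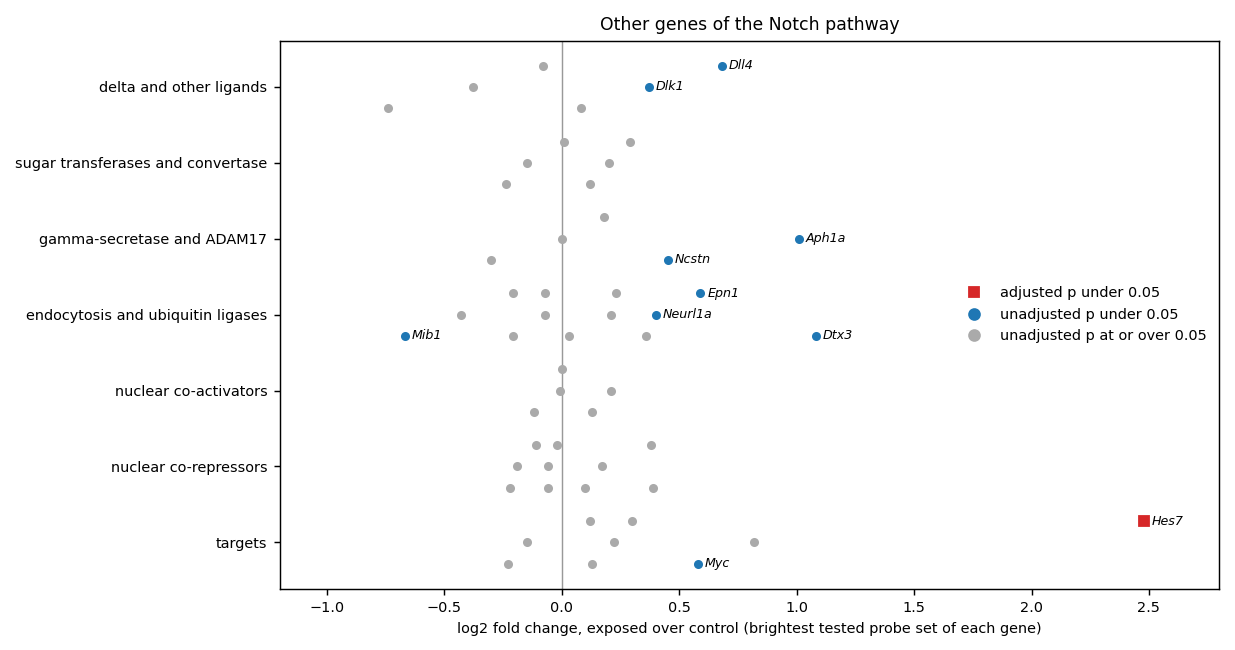
Log2 fold change of exposed over control embryos for the brightest tested probe set of each of 54 other pathway genes, in 7 groups by role; the vertical offset within a group only separates points. The red square is the called gene (Hes7, 2.48), blue points have an unadjusted p under 0.05 and are named, and grey points do not; most points lie close to 0 on either side.

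Markers of the cells that carry these genes were measured beside them. Markers of neurons had lower signals in exposed embryos. Of 19 tested probe sets 9 were lower at an unadjusted p under 0.05, against 8.52% of all tested probe sets, and 0 were higher. Of the 9, 2 were called (Dcx and Map2, both chosen after their values were seen). Another of the 9, Map2 by 1421327_at, was not called and reached the brightness limit in controls only, the group where it is high. All 9 genes were below 0 by the brightest probe set. Summed signals of neuron markers were 11191 and 11283 in controls and 7776 to 9622 in exposed embryos. Markers of primitive red cells had higher signals, with 9 of 10 probe sets higher at that level, against 7.63% of all tested probe sets. None was called, all 6 genes were above 0 and the sums were 52066 and 54326 against 64485 to 83689. Endothelial markers, beside which Notch4 and Dll4 are read, had sums of 4600.3 and 4722 against 4502 to 5815, with 2 of 16 probe sets higher and 0 lower. Markers of neural progenitors had a median log2 fold change of 0.01, but 2 of 9 tested probe sets were higher and 1 was lower at that level. Those of mural cells had a median of 0.08, with 1 of 7 higher and 0 lower. Those of somites had -0.04, with the counts given above. Those of heart muscle had 0.22, with 1 of 8 higher and 0 lower. Heart muscle sums were 9315 and 9023 in controls against 9692 to 11734 in exposed embryos. Markers of yolk sac endoderm and liver had a summed signal of 28010.5 in exposed embryo 1 without NTD. The sums were 3406 and 3377 in controls and 1294 to 2458 in the other exposed embryos, all below both controls. At an unadjusted p under 0.05, 1 of 10 tested probe sets was lower and 0 were higher. Exposed embryo 1 without NTD was the lowest in Adam10 by 1450104_at and 1428103_at, but not by 1450105_at. Xist by 1427262_at was at 12.7 and 24.1 in controls, at 12.7 in exposed embryo 2 with NTD and at 1830.2 to 3287 in the other exposed embryos. Xist thus followed the groups in all embryos but exposed embryo 2 with NTD, and the sex of the embryos is not labelled, so sex and exposure are largely confounded. Exposed embryo 2 with NTD had Adam10 signals of 316, 447 and 1238 by 1450104_at, 1450105_at and 1428103_at. The part of embryo sex in these differences was not tested. The part of cell makeup in the differences of Adam10, Jag2 and the other genes was not tested.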

How the data were processed

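Total RNA of 7 whole FVB embryos at E10.5 was hybridised to 1-colour Affymetrix arrays, 1 embryo each. The deposited intensities are MAS5 signals on a linear scale (version not given in the sources used here), which the authors scaled to a trimmed mean of 500.2 on every array (2% of probe sets trimmed at each end). Such scaling assumes a like total per array. Detection calls were not used. Of 22690 probe sets, 64 controls were set aside. The annotation gave 1 symbol to 20393, several to 691 and none to 1606, and members came from those with 1 symbol.

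A probe set was tested if 2 or more arrays had it at or over their 40th percentile (14554 in all). The tests used log2 signals (below 1 set to 1), limma 3.58.1 under R 4.3.3 with eBayes trend, and Benjamini-Hochberg adjustment over all of them. The NTD comparison came from a model with 3 groups. After the study's own criteria, a fold of mean signals beyond 1.5 was combined with an unadjusted p under 0.05 by Welch's test and by a regularized one after Cyber-T, whose window of 101 probe sets and confidence of 10 were chosen here; the study's detection step and false discovery rate setting were not applied.

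The members and lists were chosen with earlier results of these data known. All member probe sets were named, with the called and up to 2 genes of smallest p in each pathway group, and the 5 probe sets closest to the member of smallest p. Alternatives were other normalizations, floors, offsets, filters, weights, tests and groupings, and each embryo left out. The limma test was tried on simulated data. The other tools were Matplotlib 3.10.9, SciPy 1.17.1, NumPy 2.4.6, pandas 2.3.3 and Python 3.11.15.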

Additional observations from a re-analysis of the deposited data

Results flagged for a closer look

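In 3 of the 20 member probe sets, 1 exposed embryo lay far from the other 4 by Dixon's ratio of log2 signals. This is the gap to its neighbour over the range of the 5, and chance gives such a value in about 1 of 20 groups. Adam10 by 1450104_at had 178 in exposed embryo 1 without NTD (ratio 0.80). Notch3 by 1421965_s_at had 1337 in the same embryo (ratio 0.80), the embryo with the high yolk sac markers. Jag2 by 1426430_at had 372 in exposed embryo 3 without NTD (ratio 0.78). The part of yolk sac tissue in the first pair of values was not tested.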

How the results depend on the processing

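In the comparison of exposed with control embryos, where 0 members, 1 pathway probe set and 25 probe sets in all were called, the counts in that order were 2, 8 and 491 with array quality weights and 2, 11 and 1304 with the regularized test of the methods, both called members being of Adam10, and 0 members were called with Welch's test. The count in all was 50 with an offset of 50, 8 with no filter, 10 with no trend and 0 with Welch's test, without the exposed embryos without NTD or with the replicate block. The pathway count was 2 with that offset and 0 with no filter, the filter in all 7 arrays, Welch's test, without the exposed embryos without NTD or with the replicate block. With 1 embryo left out in turn the counts were 0 to 1, 0 to 1 and 0 to 58, where the lone remaining control is assumed to vary like the other group, and the cause of these moves was not tested. The count in all was 40 and 6 when embryo 1 or 3 of the exposed group without NTD was left out, 58 and 10 for embryo 1 or 2 with NTD, and 1 and 0 for control 1 or 2. Between embryos with and without NTD, where 0 were called in all (440 had an unadjusted p under 0.05), 0 to 2 were, with 2 without exposed embryo 1 with NTD, and the difference of Adam10 by 1450104_at (0.28) ran from -0.01, the value when exposed embryo 1 of those without NTD was left out, to 0.47. Over 20 alternatives the log2 fold change of exposed over control embryos lay between -1.47 and -1.07 for Adam10 by 1450104_at (adjusted p 0.000141 to 0.395, called in 3), -0.63 and -0.53 for 1450105_at (0.0058 to 0.585, called in 2), -0.27 and -0.08 for 1428103_at (0.476 to 0.941), and 0.28 and 0.44 for Jag2 by 1426430_at (0.137 to 0.687, called in 0). Hes7 lay between 1.44 and 2.82 and was called in 9 of 19 (0.00532 to 0.227). Of 317 member fold changes recomputed 12 changed sign, and of 208 between embryos with and without NTD 22. The replicate numbers of the labels did not pair the embryos: deviations of embryos with the same number correlated at -0.25 to 0.03.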
